A study of Mus musculus with 8 samples.

Results

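Counted here were 35 genes of the p53 pathway and the DNA damage response, out of 56749 features, in nuclei of visceral white adipose tissue from 8 mice. The list was drawn up by gene name, with earlier results of these data known, and holds Trp53, which encodes p53, 5 regulators, 4 kinases that signal DNA damage, 9 targets that act in growth arrest or stress, 12 that act in cell death and 4 that act in DNA repair. All 35 symbols were found in the feature list. Cdkn1a, which encodes the target p21, was left out because every mouse carried an insertion at that locus. The counts came from single-nucleus RNA sequencing on the 10x Genomics 3' platform, in which each captured RNA molecule bears a unique molecular identifier (UMI). Per the labels' protocols, the tissue had been snap frozen and its nuclei were stained with DAPI and flow sorted, with tissue handled in random order in batches of 2. Which mice shared a batch is not recorded, so batch and group cannot be told apart. There were 4 groups of 2 mice: p21+/mCherry on the standard diet (mCherry SD), p21+/mCherry on the high-fat diet (mCherry HFD), p21+/mCherry-Tert on the high-fat diet (Tert HFD) and p21+/mCherry-TertCi on the high-fat diet (TertCi HFD).

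All 4 groups thus carried mCherry, a red fluorescent protein, at 1 copy of the p21 locus, and the p21 promoter drove the insert. Tert is the catalytic subunit of telomerase, and the labels do not spell out how TertCi differs from it. The series' design text names the stromal vascular fraction and p21+/- mice on the high-fat diet, and the sample labels were followed. Age, sex and time on the diet are not given in the sources used here. Over all barcodes, Cdkn1a stood at 1.57 to 3.19 counts per 1000000 UMIs (CPM) for mCherry SD, 14.3 to 17.1 for mCherry HFD, 4.28 to 8.48 in Tert HFD and 4.41 to 6.69 in TertCi HFD. Tert stood at 3.52 to 3.98, 3.27 to 3.58, 2.01 to 2.66 and 2.48 to 2.76 CPM in the same order. Tert was thus not higher in the mice labelled Tert. Whether the inserted Tert reads can be counted under that name is not given, so Tert checks no label. The mCherry feature held 25 UMIs over all 8 libraries, at most 0.122 CPM in any of them, and checks no label either. Values are given per mouse in the order rep144 and rep146 for mCherry SD, rep128 and rep129 for mCherry HFD, rep134 and rep136 for Tert HFD, and rep138 and rep140 for TertCi HFD. With 2 mice a group, p-values measure only the spread between these mice.

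The protein p53 is a transcription factor that is held low by the ubiquitin ligase Mdm2 and its partner Mdm4. The kinases Atm and Atr, which sense DNA breaks and stalled replication, and the checkpoint kinases Chek1 and Chek2 below them phosphorylate p53 and free it from Mdm2, after which its target genes halt the cell cycle, repair DNA or start apoptosis. In obese adipose tissue p53 and p21 are known for their part in cellular senescence and inflammation, and several of the targets, among them Gdf15, Plk2, Gadd45a and the sestrins, also answer to stress signals that do not pass through p53.

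The libraries held 23378488 to 139749876 UMIs and gave 1978 to 7433 nuclei each, 30209 in all, with medians of 1684 to 7135 UMIs per nucleus. Of 30091 distinct barcodes, 116 occurred in more than 1 library. Clusters of nuclei were named from marker genes, and none of the 35 genes was among the 2000 genes used for clustering. Adipocyte-like, progenitor-like and macrophage-like nuclei were the 3 classes tested, each with at least 25 nuclei in every library, on UMIs summed per class and mouse. Adipocyte-like nuclei were scarce in mCherry HFD, with 110 and 32, and macrophage-like nuclei were scarce in mCherry SD, with 93 and 152. The adipocyte-like sum of mCherry HFD rep129 held 215676 UMIs, so its levels of weakly expressed genes rest on few UMIs. Mixed and unnamed clusters were in no class. Unnamed clusters held 30.4% and 26.2% of the mCherry SD nuclei, and mixed clusters held a further 24.2% and 26.1%. In mCherry HFD unnamed clusters held 1.26% and 0.973% and mixed clusters 17.6% and 16.7%. The diet comparison thus left out a larger share of the mCherry SD nuclei. Epithelial-like nuclei, a class not tested, numbered 319 in mCherry HFD rep128 and at most 2 in any other mouse. Mixed or unnamed clusters led by Lsamp, by Lgr5 and by Akr1b7 held nuclei of mCherry SD rep146 only. Barcodes with at most 100 UMIs, which hold mostly free RNA, served as a background. The part of such nuclei in the background of those libraries was not tested. In a given library, 21 to 29 of the 35 genes stood at or below that background in adipocyte-like nuclei, 22 to 31 in progenitor-like and 18 to 28 in macrophage-like nuclei, so a level alone does not show that those nuclei expressed the gene.

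The 35 genes differed in where they were highest. Among the 3 large classes, Sesn2, Phlda3, Aen, Fas, Tnfrsf10b and Bbc3 were highest in adipocyte-like nuclei in all 8 libraries, and Mdm2, Fbxw7, Sesn1 and Apaf1 were highest in macrophage-like nuclei in all 8. No member was highest in progenitor-like nuclei in all 8. Sesn2, a leucine sensor that restrains mTORC1, stood at 30.9 ± 11.1 CPM (SD, n = 8) in adipocyte-like nuclei. Fbxw7, the substrate-binding subunit of a ubiquitin ligase that degrades cyclin E and Myc, stood at 410.4 ± 75.9 CPM in macrophage-like nuclei, and its next highest class, endothelial-like nuclei, stood at 277 CPM. Apaf1, the core of the apoptosome, stood at 175 ± 18.8 CPM in macrophage-like nuclei and at 168 CPM in lymphatic endothelial-like nuclei, which is within that spread. The endothelial-like mean covers 6 libraries and the lymphatic endothelial-like mean 3, none of them mCherry SD. These class means thus do not come from the same mice as the means over 8 libraries. All these levels are descriptions, since classes were drawn from the same nuclei, and are not tested.

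**Figure D1:**
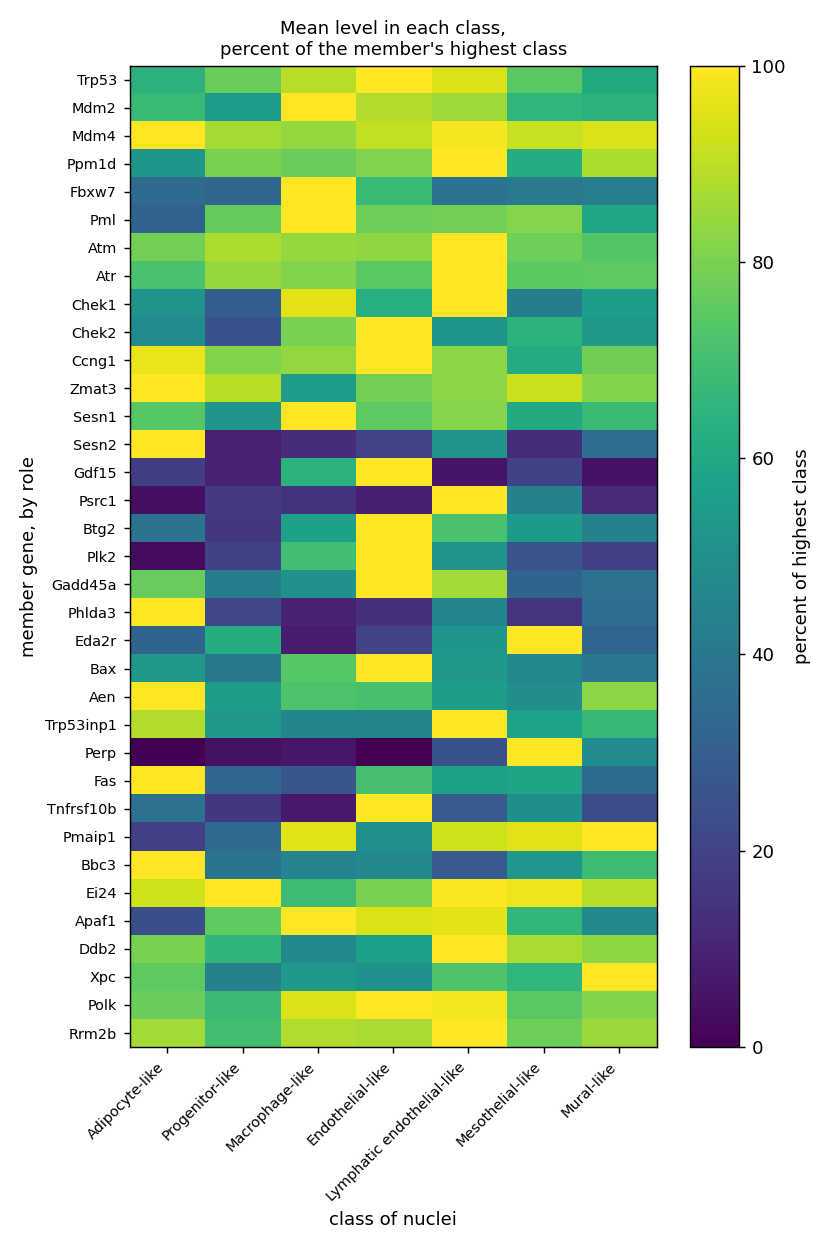
Mean level of each of the 35 genes in each class, as percent of the class in which that gene was highest (rows, genes; columns, classes of nuclei; only classes with at least 25 nuclei in a library enter the mean). Means cover 6 libraries for endothelial-like, 3 for lymphatic endothelial-like and 7 for mural-like nuclei, and 8 for the other classes. Sesn2, Phlda3, Aen, Fas and Bbc3 peak in adipocyte-like nuclei and Mdm2, Fbxw7, Sesn1, Pml and Apaf1 in macrophage-like nuclei.

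The promoters of these genes were compared with the p53 response element, a run of 20 bases made of a pair of decamers that each read the same on both strands, so that one search covers both. The RefSeq promoter table (GRCm38.p6, 250 bases before to 50 after each start) held 37 windows for 27 of the 35 genes. With up to 3 mismatches and no spacer, the element was found in 11 of the 37 windows (29.73%), for Aen, Bax, Bbc3, Ccng1, Chek2, Gadd45a, Mdm4, Polk, Sesn1 and Trp53, against 6.292% of all 32851 windows. Both Aen windows hold the same stretch. Because the list was made of p53, its regulators and its targets, a higher share can follow from that choice and is not a test of it. With up to 1 mismatch it was found in 0.08828% of all windows, and Ccng1 was the one member. The sequences below are shown because Ccng1 holds the closest match, because Trp53 encodes the factor itself and because Mdm4, Sesn1, Gadd45a and Plk2 differed between groups in the tests that follow. Each is written 5′ to 3′ on the gene's strand, and capitals mark the bases that match the element.
Ccng1: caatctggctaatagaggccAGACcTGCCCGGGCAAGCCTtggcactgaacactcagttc
Trp53: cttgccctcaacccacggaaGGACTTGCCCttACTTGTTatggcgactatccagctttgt
Mdm4: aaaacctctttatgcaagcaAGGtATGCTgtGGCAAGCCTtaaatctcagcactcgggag
Sesn1: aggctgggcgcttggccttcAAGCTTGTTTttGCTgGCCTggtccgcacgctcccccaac
Gadd45a: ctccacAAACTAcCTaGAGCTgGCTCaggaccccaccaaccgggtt
Plk2: GctCTTGCTCGcACAAGCga
The Ccng1 match lay at chr11:40755462-40755481, minus strand, that of Trp53 at chr11:69580284-69580303, plus strand, and that of Mdm4 at chr1:133025626-133025645, minus strand. The Sesn1 match lay at chr10:41887266-41887285, plus strand, that of Gadd45a at chr6:67037632-67037651, minus strand, and that of Plk2 at chr13:110395038-110395057, plus strand. Plk2, with 5 mismatches, is shown only as its nearest stretch. Sesn2, Phlda3, Gdf15, Fas and Fbxw7 also came no closer than 5 mismatches in these windows. A match is a run of letters and not a bound site, and many known p53 sites lie in introns or farther upstream, outside such windows.

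Of the 3 classes, macrophage-like nuclei held the most member calls. On the high-fat diet, mCherry mice had higher Plk2, Ddb2, Gadd45a and Gdf15 and lower Fas and Fbxw7 than mCherry mice on the standard diet. Against mCherry HFD, Plk2 and Gdf15 were lower and Fbxw7 higher in both Tert HFD and TertCi HFD. With edgeR (adjusted p below 0.05, over all genes), 6 of the 31 members tested were called for diet, against 20.4% (10.2% higher and 10.2% lower) of all genes tested. For Tert HFD against mCherry HFD 5 were called, against 19.9% (8.84% higher and 11.1% lower) of all genes, and for TertCi HFD against mCherry HFD 4, against 25.9% (11.7% higher and 14.2% lower). The share of members called was near or below the share of all genes each time. These comparisons share the mCherry HFD mice, so opposite signs across them are not independent. Psrc1, Phlda3, Perp and Tnfrsf10b did not pass the filter on low counts here. By role, 3 of the 8 arrest and stress targets tested rose with diet, 1 of 4 repair targets rose, and 1 of 9 death targets and 1 of 5 regulators fell.

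Plk2, a stress-induced kinase of the polo family, was called in all 3 comparisons with mCherry HFD. It stood at 6.34 and 19.6 CPM for mCherry SD, 88.5 and 83.0 for mCherry HFD, 34.6 and 29.6 for Tert HFD, and 15.9 and 14.4 for TertCi HFD. Both mCherry HFD mice were above every other mouse, the 2 Tert HFD mice came next, and the TertCi HFD mice lay between the mCherry SD mice. The log2 difference was 2.31 (SE 0.327, edgeR adjusted p 0.000451) for diet, -1.23 (SE 0.222, edgeR adjusted p 0.00301) for Tert and -2.29 (SE 0.245, edgeR adjusted p 0.000108) for TertCi. All 3 calls were kept under every alternative, but without mCherry SD rep146 the diet difference was 3.53. In the low barcodes Plk2 stood at 2.81 and 8.55 CPM in mCherry SD, 88.6 and 95.4 in mCherry HFD, 29.3 and 22.3 in Tert HFD and 15.4 and 10.5 in TertCi HFD. The macrophage-like nuclei held more than these in both mCherry SD libraries and about as much in mCherry HFD. Adipocyte-like nuclei of the same mCherry HFD libraries held 0.626 and 0 CPM, from 1 UMI, far below those low barcodes. That low level depended on the choice of nuclei. The adipocyte-like diet difference of Plk2 was -2.17 on the log2 scale here. It was 2.88 with 1000 UMIs as the threshold for a nucleus in every library and 2.27 when mixed clusters were given to their best class.

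Gdf15, a secreted stress cytokine of the TGF-beta family, and Gadd45a, which binds PCNA and stress kinases, were low throughout. Gdf15 stood at 0 and 1.40 CPM for mCherry SD, 11.1 and 9.30 for mCherry HFD, 4.42 and 2.76 for Tert HFD, and 2.11 and 0.848 for TertCi HFD. Both mCherry HFD mice were above all others. The mCherry SD sums held 1 UMI of Gdf15 against 347 in mCherry HFD, a ratio of 11.2 with a 95% exact interval of 1.99 to 442 that covers counting error only (edgeR adjusted p 0.0340). For Tert the log2 difference was -1.25 (SE 0.411, edgeR adjusted p 0.0497), and for TertCi -2.32 (SE 0.490, edgeR adjusted p 0.00496). The Tert call was lost without mCherry SD rep144 or rep146, mCherry HFD rep128 or rep129, Tert HFD rep134 or rep136 or TertCi HFD rep138 or rep140 (log2 -1.66 to -1.12, edgeR adjusted p 0.0547 to 0.409), the diet call without mCherry SD rep144 or rep146 or mCherry HFD rep128 or rep129 (log2 2.72 to 9.03, edgeR adjusted p 0.0596 to 0.164) and the TertCi call without mCherry HFD rep128 or TertCi HFD rep138 (log2 -3.41 to -2.22, edgeR adjusted p 0.0659 to 0.0849). The Tert call was also lost with DESeq2 (adjusted p 0.236) and with 1000 UMIs as the threshold for a nucleus in every library (edgeR adjusted p 0.0637), and the diet call with DESeq2 (adjusted p 0.114).

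Gadd45a stood at 0 and 0 CPM for mCherry SD, 7.62 and 7.75 for mCherry HFD, 3.16 and 4.13 for Tert HFD, and 2.32 and 0.848 for TertCi HFD. Its mCherry HFD mice were again the highest, and mCherry SD held no UMI. Against a floor of 3 counts over that group, the mCherry HFD level was at least 2.62-fold higher (edgeR adjusted p 0.0276). For TertCi the log2 difference was -1.78 (SE 0.517, edgeR adjusted p 0.0259). The diet call was lost without either mCherry SD mouse or either mCherry HFD mouse (edgeR adjusted p 0.0605 to 0.238), and the TertCi call without mCherry HFD rep128 or rep129 or TertCi HFD rep138 or rep140 (log2 -2.99 to -1.61, edgeR adjusted p 0.0975 to 0.192). DESeq2 made neither call (adjusted p 0.0569 for diet and 0.111 for TertCi). In mCherry HFD the low barcodes held 17.2 and 28.8 CPM of Gdf15 and 13.2 and 27.5 CPM of Gadd45a, above the macrophage-like levels, while adipocyte-like nuclei there held 3.13 and 4.64 CPM of Gdf15 and 4.38 and 9.27 CPM of Gadd45a.

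Ddb2, which recognises ultraviolet lesions in nucleotide excision repair, stood at 9.52 and 11.2 CPM for mCherry SD, 36.7 and 37.4 for mCherry HFD, 20.7 and 17.9 for Tert HFD, and 19.7 and 21.2 for TertCi HFD. The mCherry SD mice were lowest, the mCherry HFD mice highest, and the Tert and TertCi mice lay between them without overlap with either. It was 1.60 (SE 0.357, edgeR adjusted p 0.00778) on the log2 scale for diet and -0.76 (SE 0.234, edgeR adjusted p 0.0400) for Tert, while TertCi, at -0.68 (SE 0.238, edgeR adjusted p 0.0526), was not called. The diet call was lost without mCherry SD rep146 (log2 1.73, edgeR adjusted p 0.0979) and the Tert call without mCherry HFD rep128 or rep129, Tert HFD rep134 or rep136 or TertCi HFD rep140 (log2 -0.82 to -0.74, edgeR adjusted p 0.0526 to 0.197). With 1000 UMIs in every library the diet difference was 0.76 (edgeR adjusted p 0.0285). The Tert call was lost as well with DESeq2 (adjusted p 0.0625) and with that threshold (log2 -0.61, edgeR adjusted p 0.0668). Low barcodes in mCherry HFD held 52.7 and 49.1 CPM.

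Fas, the death receptor, moved the other way. It stood at 31.7 and 35.1 CPM for mCherry SD, 17.5 and 20.4 for mCherry HFD, 36.0 and 26.2 for Tert HFD, and 30.01 and 21.2 for TertCi HFD. Lowest were the mCherry HFD mice, narrowly below TertCi HFD rep140, and Fas was below the low barcodes in all 8 libraries. The log2 difference was -1.05 (SE 0.311, edgeR adjusted p 0.0326) for diet and 0.93 (SE 0.246, edgeR adjusted p 0.0202) for Tert, and TertCi, at 0.69 (SE 0.252, edgeR adjusted p 0.0620), was not called. The diet call was lost without mCherry SD rep144 or rep146, mCherry HFD rep128 or rep129 or TertCi HFD rep140 (log2 -1.08 to -0.90, edgeR adjusted p 0.0672 to 0.265) and the Tert call without mCherry HFD rep128 or rep129 or Tert HFD rep134 (log2 0.72 to 0.96, edgeR adjusted p 0.0787 to 0.232). Both calls were lost with DESeq2 (adjusted p 0.0616 for diet and 0.0536 for Tert) and under total UMIs alone (edgeR adjusted p 0.0951 and 0.0714), and the diet call without the filter on low counts (edgeR adjusted p 0.133).

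Fbxw7 was lower on the high-fat diet in these nuclei as well. It stood at 517 and 478 CPM for mCherry SD, 290.2 and 321 for mCherry HFD, 425 and 449 for Tert HFD, and 400.1 and 402 for TertCi HFD, above the low barcodes in all 8 libraries. The mCherry SD mice were highest, the mCherry HFD mice lowest, and the other 4 mice lay between them without overlap. The log2 difference was -0.91 (SE 0.155, edgeR adjusted p 0.00163) for diet, 0.71 (SE 0.148, edgeR adjusted p 0.00624) for Tert and 0.59 (SE 0.148, edgeR adjusted p 0.0121) for TertCi. The diet call was kept under every alternative. The Tert call was lost without mCherry HFD rep128 (log2 0.61, edgeR adjusted p 0.113), and the TertCi call without mCherry HFD rep128 or rep129 or TertCi HFD rep138 or rep140 (log2 0.48 to 0.60, edgeR adjusted p 0.0658 to 0.173) or with 1000 UMIs in every library (edgeR adjusted p 0.0822).

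**Figure D2:**
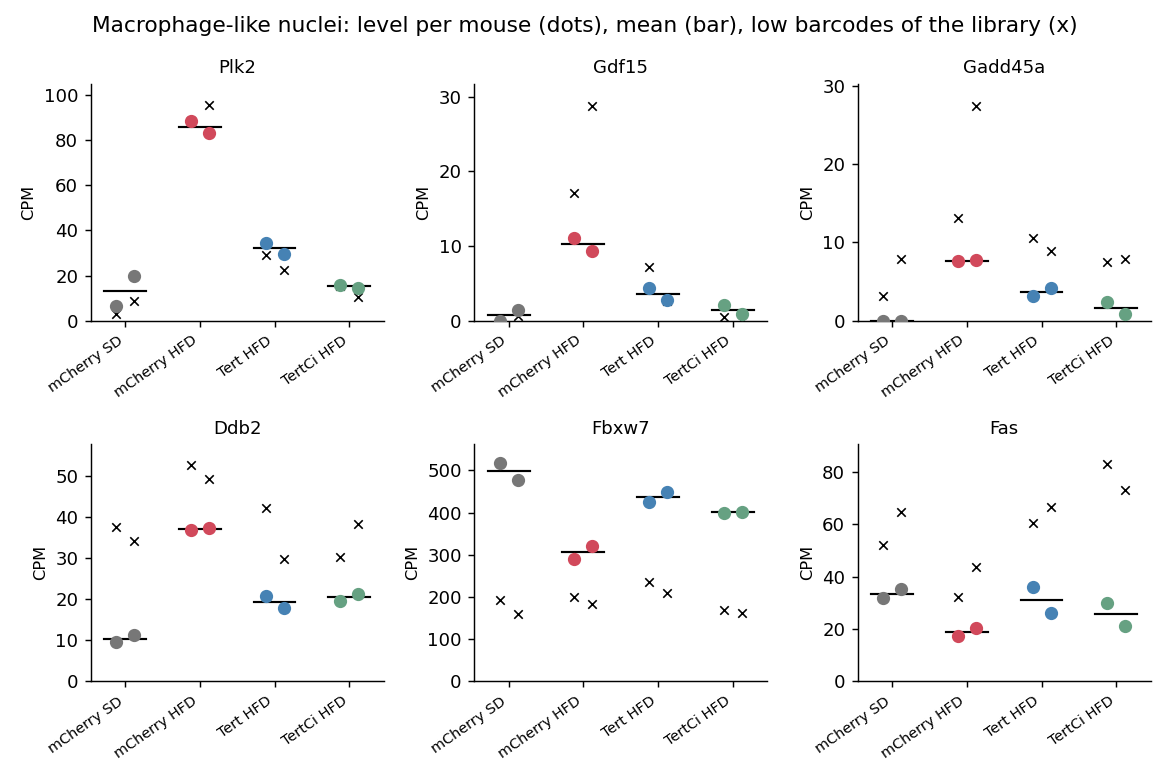
Level in macrophage-like nuclei (CPM) of the 6 members called in that class, by group; each dot is 1 mouse, each bar the group mean and each x the low barcodes of the same library. Plk2, Ddb2, Gadd45a and Gdf15 are highest in both mCherry HFD mice, Fas and Fbxw7 are lowest there, and of the 6 only Fbxw7 lies above the low barcodes in every library.

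The macrophage-like class was made of different clusters in different groups. The part of this in the member differences was not tested. A cluster led by F13a1, Hrh1 and Cd163 held 76.3% and 80.3% of the class in mCherry SD and 0.457% and 1.58% in mCherry HFD. It held 54.3% and 33.7% in Tert HFD and 55.3% and 46.5% in TertCi HFD. Clusters led by Clec7a, by Gpnmb and Mmp12, and by Gm49144, Vsig4 and Ccl8 held most of the class in mCherry HFD. No cluster had 25 nuclei in both a mCherry SD and a mCherry HFD mouse, so the diet comparison could not be made within a cluster.

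Within the F13a1 cluster, Plk2 stood at 4.09 and 21.2 CPM in mCherry SD, 13.4 and 4.05 in Tert HFD and 5.32 and 13.3 in TertCi HFD, and these mice overlapped. In the Gpnmb and Mmp12 cluster Plk2 stood at 145 and 125 CPM in mCherry HFD and 97.0 in Tert HFD rep134. In a cluster led by Tmem267 and Ksr2, which held 46.9% of the class in Tert HFD rep136, Plk2 was 127.9 and 54.2 CPM in Tert HFD and 46.6 and 34.1 in TertCi HFD. Plk2 was thus higher in every mouse of the Gpnmb and the Tmem267 clusters than in any mouse of the F13a1 cluster. Fbxw7 in the F13a1 cluster was 569 and 503 CPM in mCherry SD, 491 and 533 in Tert HFD and 451 and 427 in TertCi HFD, and no mCherry HFD mouse had 25 nuclei there. In mCherry HFD, Fbxw7 stood at 236 and 255.9 CPM in the Clec7a cluster, 268 and 299.7 in the Gpnmb cluster and 432 and 482 in the Gm49144 cluster. The last of these overlapped the F13a1 cluster and the other two lay below it. Ddb2 in the F13a1 cluster was 12.3 and 10.6 CPM in mCherry SD and higher, 20.4, 24.3, 22.4 and 20.9, in the Tert and TertCi mice, with no overlap and no test.

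**Figure D3:**
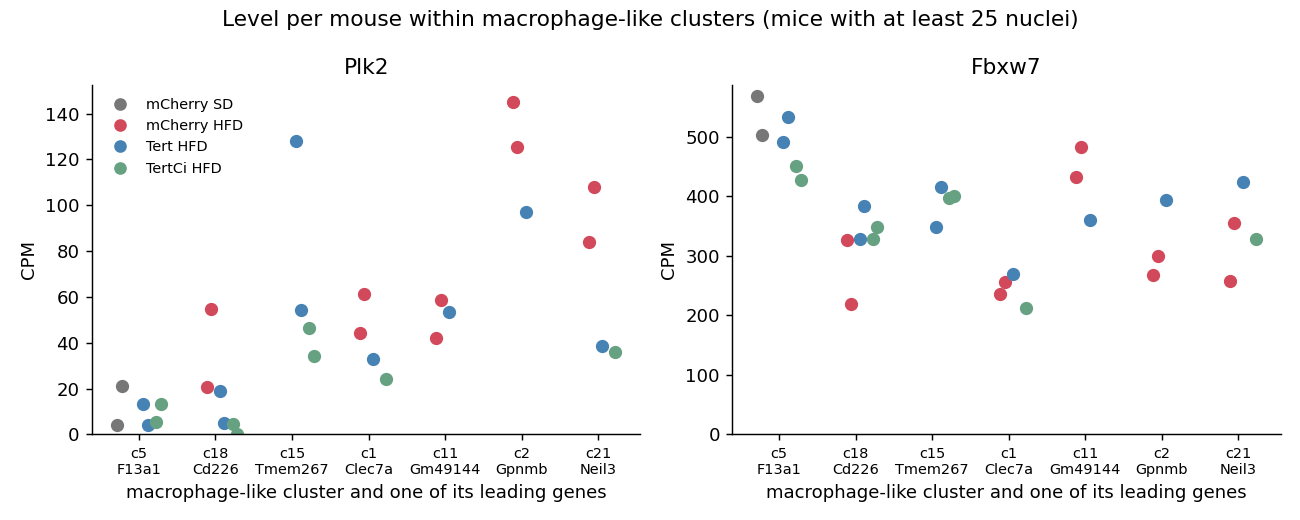
Level of Plk2 and Fbxw7 (CPM) in each macrophage-like cluster, named by 1 leading gene; each point is 1 mouse with at least 25 nuclei in that cluster, coloured by group. In mCherry HFD, Plk2 is highest in the Gpnmb cluster, and it is at most 21.2 CPM in the F13a1 cluster in the 3 groups shown there.

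Other markers moved with these groups as well. The 8 cycling genes summed to 9.52 to 40.7 CPM in macrophage-like nuclei of mCherry SD, 116 to 140.1 in mCherry HFD, 33.8 to 71.4 in Tert HFD and 46.9 to 83.9 in TertCi HFD. Without the cluster led by cycling genes, an alternative added after the data were seen, 6 members were called for diet, 5 for Tert and 5 for TertCi, against 19.9%, 18.9% and 25.4% of all genes in that fit. Each macrophage-like call described above was kept there except that of Gdf15 for diet (edgeR adjusted p 0.0544). Ccng1 for diet and Ddb2 for TertCi were gained. The 10 macrophage markers summed to 13829 to 15752 CPM for mCherry SD, 6521 to 6792 for mCherry HFD, 7369 to 13247 for Tert HFD and 10306 to 12661 for TertCi HFD. The 10 adipocyte markers, all detected, summed to 349 to 639.6, 138.4 to 202, 307 to 307 and 319.7 to 446 CPM in the same order. The 6 B cell markers, of which 3 to 6 were detected in a mouse, summed to 688 to 874, 122 to 153, 241 to 366 and 529 to 565 CPM, and the 6 dendritic cell markers, of which 2 to 6 were detected, to 116 to 124, 31.8 to 35.9, 54.4 to 82.4 and 56.8 to 74.2 CPM. Both were lowest in mCherry HFD. The 10 progenitor markers, all detected, summed to 252 to 308, 387 to 766, 282 to 301 and 156 to 226 CPM and were highest in mCherry HFD. The 8 endothelial markers, of which 5 to 8 were detected, summed to 47.6 to 54.7, 37.6 to 58.9, 101 to 107 and 67.0 to 93.0 CPM, lower in mCherry HFD than in Tert HFD and TertCi HFD. The part of all these markers in the member results was not tested.

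In adipocyte-like nuclei the stress target Sesn2 and the death target Phlda3 were higher in mCherry HFD than in mCherry SD, and Sesn1 was higher in TertCi HFD than in mCherry HFD. With edgeR, 2 of the 31 members tested were called for diet, against 15.3% (9.66% higher and 5.61% lower) of all genes tested, and 1 for TertCi, against 7.57% (2.83% higher and 4.74% lower). For Tert none was called, against 0.995% (0.228% higher and 0.768% lower) of all genes, with 4 members at an unadjusted p below 0.05, as for 20.3% of all genes, and none called by DESeq2. Chek1, Psrc1, Perp and Pmaip1 did not pass the filter. The share of members called was below or near that of all genes in each comparison. The median log2 difference of the members for diet was 0.43, against -0.01 over all genes. By role the medians ran from -0.37 for the regulators to 0.78 for the arrest and stress targets. An unadjusted edgeR p below 0.05 was met by 10 of 31 members and by 4427 of 14064 genes. The mCherry HFD sums came from 110 and 32 nuclei, and the shift of the median was not tested.

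Sesn2 stood at 14.5 and 16.7 CPM for mCherry SD, 42.0 and 41.7 for mCherry HFD, 40.3 and 24.2 for Tert HFD, and 34.3 and 33.6 for TertCi HFD. Both mCherry SD mice were below all 6 mice on the high-fat diet, and every library was above its low barcodes. For diet the log2 difference was 1.15 (SE 0.278, edgeR adjusted p 0.0225). The call was lost without mCherry SD rep144 or rep146 or mCherry HFD rep128 or rep129 (log2 1.01 to 1.17, edgeR adjusted p 0.0554 to 0.325), and also with 1000 UMIs as the threshold for a nucleus in every library (0.52, adjusted p 0.194) or when mixed clusters were given to their best class (0.67, adjusted p 0.0676).

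Phlda3, which competes with Akt for membrane lipids, stood at 17.4 and 14.4 CPM for mCherry SD, 50.7 and 32.5 for mCherry HFD, 30.8 and 15.7 for Tert HFD, and 19.4 and 18.7 for TertCi HFD. Highest were the mCherry HFD mice, but Tert HFD rep134 came close to mCherry HFD rep129. The diet difference was 1.25 (SE 0.346, edgeR adjusted p 0.0359) on the log2 scale. It was lost without mCherry SD rep144 or rep146, mCherry HFD rep128 or rep129 or TertCi HFD rep138 or rep140 (log2 0.63 to 1.40, edgeR adjusted p 0.0518 to 0.580), with DESeq2 (adjusted p 0.0591), with 1000 UMIs in every library (log2 0.52, adjusted p 0.401) and with no mixed class (log2 0.66, adjusted p 0.212). Phlda3 was above the low barcodes in 4 of 8 libraries.

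Sesn1, the sestrin that answers to p53 and to FoxO factors, stood at 215 and 226 CPM for mCherry SD, 199 and 181 for mCherry HFD, 246 and 207 for Tert HFD, and 304 and 239 for TertCi HFD. Both TertCi HFD mice were above both mCherry HFD mice, and TertCi HFD rep140 was within the range of Tert HFD. The TertCi difference was 0.90 (SE 0.193, edgeR adjusted p 0.0262) on the log2 scale. It was lost without mCherry HFD rep128 or rep129 or TertCi HFD rep138 (log2 0.80 to 1.11, edgeR adjusted p 0.0990 to 0.154) and when libraries were scaled by total UMIs alone (0.50, adjusted p 0.169). Sesn1 was above the low barcodes in 4 of 8 libraries.

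Here too the clusters shifted. A cluster led by Cyp2e1 and Erbb4 held 58.0% and 72.0% of the class in mCherry SD and at most 15.6% in the other mice, and a cluster led by Mageb18 and Peg3 held 84.5% and 56.2% in mCherry HFD. In the Cyp2e1 cluster Sesn2 stood at 15.3 and 17.4 CPM in mCherry SD, 39.3 and 11.01 in Tert HFD and 48.7 and 33.6 in TertCi HFD. In the Mageb18 cluster it stood at 10.4 and 16.8 CPM in mCherry SD and 39.1 in mCherry HFD rep128, a comparison that rests on 1 mCherry HFD mouse and has no test. In the Cyp2e1 cluster, Tert HFD rep136 was below both mCherry SD mice. A cluster led by Adamtsl2 and Gm20532 held 60.8% of the class in Tert HFD rep136 and at most 12.5% in any other mouse. The 3 adipocyte-like calls were kept without that mouse. The 10 macrophage markers, all detected, summed to 1387 to 1854 CPM in adipocyte-like nuclei of mCherry SD, 1048 to 1887 in mCherry HFD, 1169.6 to 1449 in Tert HFD and 613 to 1034 in TertCi HFD. In these the mCherry SD and mCherry HFD mice overlapped, and both TertCi HFD mice were below all 4 of those. The cycling, progenitor, mesothelial and B cell markers did not overlap between mCherry SD and mCherry HFD there. The 8 cycling genes, of which 5 to 8 were detected in a mouse, summed to 4.72 to 5.27 CPM for mCherry SD, 31.3 to 32.5 for mCherry HFD, 12.6 to 17.8 for Tert HFD and 6.398 to 8.66 for TertCi HFD. The 10 progenitor markers summed to 262 to 277, 376 to 529, 327 to 439 and 187 to 281 CPM in the same order, and the 8 mesothelial markers to 46.7 to 52.3, 11.3 to 18.5, 23.3 to 28.7 and 15.4 to 16.4 CPM. The 6 B cell markers, of which 3 to 6 were detected, summed to 87.1 to 117, 25.7 to 64.9, 41.6 to 46.7 and 36.4 to 57.4 CPM. The 7 mural markers, of which 4 to 7 were detected, summed to 28.3 to 83.7, 74.5 to 116, 39.5 to 39.5 and 29.4 to 39.8 CPM and were higher in mCherry HFD than in Tert HFD and TertCi HFD. A cluster led by Sgcz and Trdn, 963 nuclei in all 8 mice, had 7 of the 10 macrophage markers raised at least 2-fold over the 25th percentile of all clusters. The part of these markers in the member results was not tested.

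In progenitor-like nuclei 4 members were called in at least 1 comparison. Mdm4 and Fbxw7 were lower in mCherry HFD than in mCherry SD, Fbxw7 was higher in Tert HFD than in mCherry HFD, and in TertCi HFD Ppm1d was higher and Plk2 lower than in mCherry HFD. With edgeR, 2 of the 26 members tested were called for diet, against 11.5% (7.53% higher and 4% lower) of all genes tested, 1 for Tert, against 10.6% (2.87% higher and 7.7% lower), and 2 for TertCi, against 19.4% (6.58% higher and 12.8% lower). None of these 5 calls was made by DESeq2. Chek1, Sesn2, Gdf15, Psrc1, Btg2, Gadd45a, Perp, Tnfrsf10b and Pmaip1 did not pass the filter.

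Mdm4, the Mdm2 partner that blocks the activity of p53, stood at 212 and 259.7 CPM for mCherry SD, 200.1 and 172 for mCherry HFD, 225 and 204 for Tert HFD, and 194 and 217 for TertCi HFD. The mCherry SD and mCherry HFD mice did not overlap, while the other mice lay among them. In all 8 libraries this level was at or below that of the low barcodes, which held 217 and 270.4 CPM in mCherry SD and 206 and 204 in mCherry HFD, also without overlap. The diet difference was -0.55 (SE 0.157, edgeR adjusted p 0.0438) on the log2 scale and was lost without mCherry SD rep144 or rep146, mCherry HFD rep128 or rep129 or TertCi HFD rep138 or rep140 (log2 -0.66 to -0.45, edgeR adjusted p 0.0547 to 0.232), with DESeq2 and when libraries were scaled by total UMIs alone (adjusted p 0.0820 and 0.194), the latter at -0.34.

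Fbxw7 stood at 138.5 and 162 CPM for mCherry SD, 110.5 and 121 for mCherry HFD, 151 and 154 for Tert HFD, and 136.1 and 111 for TertCi HFD. Both mCherry HFD mice were below the mCherry SD and Tert HFD mice and overlapped TertCi HFD. The low barcodes held 193 and 159 CPM in mCherry SD, 200.5 and 183 in mCherry HFD and 235 and 209 in Tert HFD, and the progenitor-like level was at or below theirs in 7 of 8 libraries. The log2 difference was -0.60 (SE 0.165, edgeR adjusted p 0.0383) for diet and 0.56 (SE 0.157, edgeR adjusted p 0.0427) for Tert. The diet call was lost without mCherry SD rep144 or rep146 or mCherry HFD rep128 or rep129 (log2 -0.67 to -0.52, edgeR adjusted p 0.0866 to 0.249) and the Tert call without mCherry HFD rep128 or rep129, Tert HFD rep136 or TertCi HFD rep138 or rep140 (log2 0.49 to 0.63, edgeR adjusted p 0.0537 to 0.311). Both were lost with DESeq2, with 1000 UMIs in every library, with no mixed class and under total UMIs alone (adjusted p 0.0886 to 0.371 for diet and 0.122 to 0.360 for Tert). The difference was smallest with no mixed class, -0.22 for diet and 0.24 for Tert.

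Ppm1d, the phosphatase that shuts damage signalling down, stood at 52.3 and 49.2 CPM for mCherry SD, 38.8 and 40.8 for mCherry HFD, 43.6 and 27.8 for Tert HFD, and 57.3 and 51.0 for TertCi HFD. Both TertCi HFD mice were above both mCherry HFD mice, at levels like those of mCherry SD. The TertCi difference was 0.66 (SE 0.202, edgeR adjusted p 0.0391) on the log2 scale. It was lost without mCherry HFD rep128 or rep129 or TertCi HFD rep138 or rep140 (log2 0.62 to 0.73, edgeR adjusted p 0.0960 to 0.250), with DESeq2 (adjusted p 0.160), with 1000 UMIs in every library (adjusted p 0.0704) and under total UMIs alone (adjusted p 0.172).

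Plk2 in progenitor-like nuclei stood at 7.06 and 9.85 CPM for mCherry SD, 15.7 and 21.3 for mCherry HFD, 6.52 and 8.17 for Tert HFD, and 5.26 and 9.42 for TertCi HFD. Again the mCherry HFD mice were the highest of the 8, with every other mouse below 10 CPM. The TertCi difference was -1.19 (SE 0.374, edgeR adjusted p 0.0453) on the log2 scale, and the others, 0.84 (SE 0.448, edgeR adjusted p 0.250) for diet and -1.21 (SE 0.381, edgeR adjusted p 0.0666) for Tert, were not called. The TertCi call was lost without mCherry SD rep144 or rep146, mCherry HFD rep128 or rep129 or TertCi HFD rep138 (log2 -1.41 to -0.67, edgeR adjusted p 0.0551 to 0.405), without the filter on low counts (adjusted p 0.0531) and with DESeq2 (adjusted p 0.210). With no mixed class it was -2.04 (edgeR adjusted p 0.000456), and diet (1.53, edgeR adjusted p 0.0105) and Tert (-1.60, edgeR adjusted p 0.00290) were then called too, as with 1000 UMIs in every library. The low barcodes of mCherry HFD held 88.6 and 95.4 CPM of Plk2, above these levels.

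A cluster led by Cemip and Fam227b held 57.3% and 59.1% of the progenitor-like class in mCherry HFD and at most 8.87% in any other mouse, and a cluster led by Dchs2 and Amph held 55.5% and 54.1% in mCherry SD. A cluster led by Adamts16 and Sema3e was present in all 8 mice. In it Fbxw7 stood at 149 and 147 CPM in mCherry SD, 109 and 122 in mCherry HFD, 156 and 165 in Tert HFD and 143 and 77.4 in TertCi HFD. There too the mCherry HFD mice were below the mCherry SD and Tert HFD mice. Mdm4 in that cluster stood at 207 and 255.8 CPM in mCherry SD and 191 and 179 in mCherry HFD, without overlap and without a test. The 10 adipocyte markers, all detected, summed to 277 to 669 CPM for mCherry SD, 86.1 to 136.4 for mCherry HFD, 277 to 289 for Tert HFD and 295 to 377 for TertCi HFD in progenitor-like nuclei, lowest in mCherry HFD. The 8 cycling genes, of which 1 to 8 were detected in a mouse, summed to 0.895 to 1.41, 20.9 to 25.6, 6.54 to 7.68 and 4.25 to 5.54 CPM in the same order, highest in mCherry HFD. The 8 mesothelial markers summed to 273 to 280.3, 161 to 228, 103 to 211 and 133 to 185 CPM and the 7 mural markers to 102 to 184, 234 to 351, 194 to 229.6 and 128.2 to 168 CPM. The 10 progenitor markers themselves summed to 7507 to 8232, 10228 to 11116, 7897 to 11545 and 8472 to 8700.1 CPM. None of these overlapped between mCherry SD and mCherry HFD. The 10 macrophage markers summed to 276 to 475, 436 to 632, 429 to 612 and 332 to 386 CPM and were higher in mCherry HFD than in TertCi HFD. The part of all these markers in the calls was not tested.

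**Figure D4:**
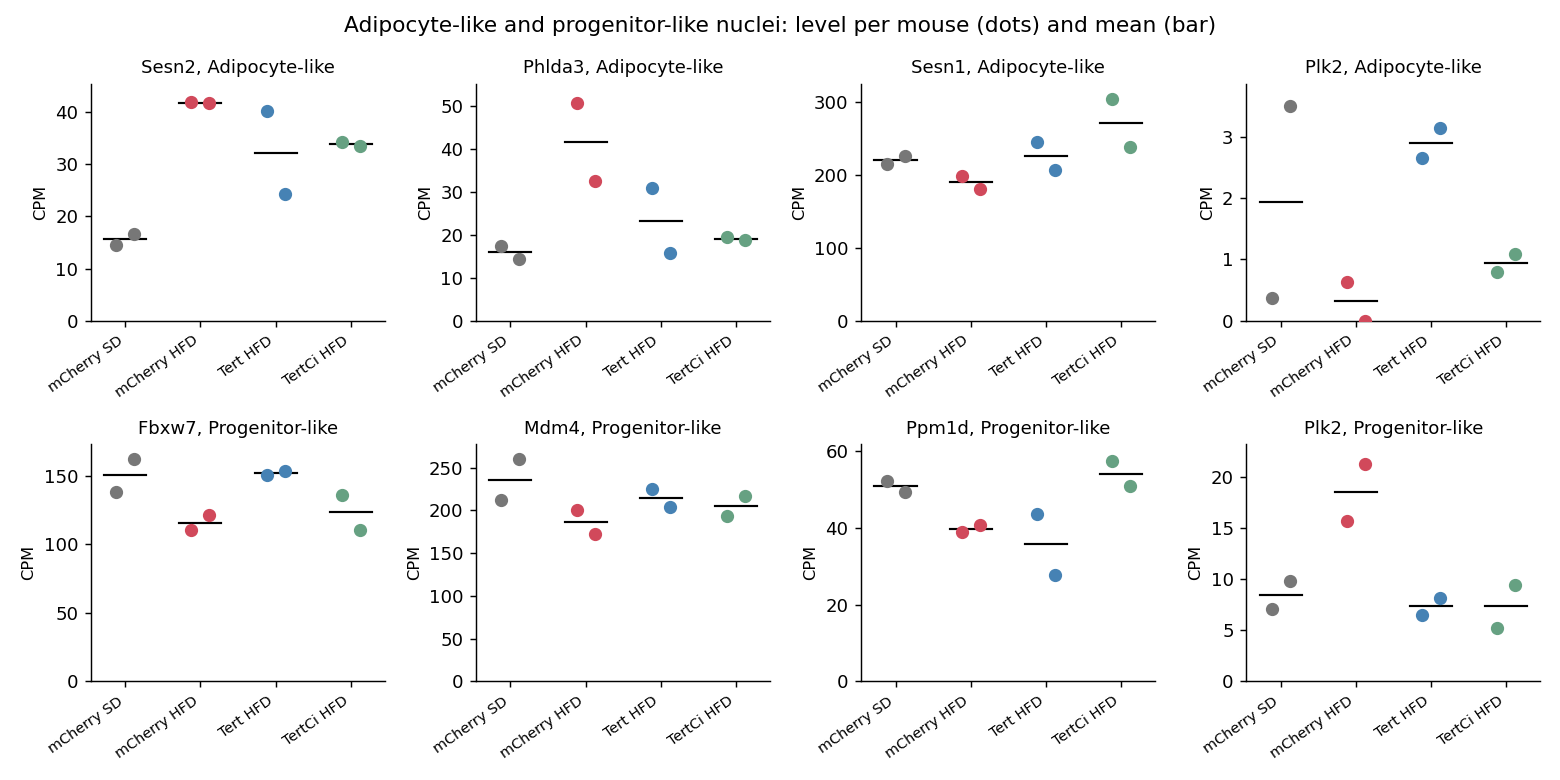
Level (CPM) of the members called in adipocyte-like or progenitor-like nuclei, and of Plk2 in adipocyte-like nuclei, by group; each dot is 1 mouse and each bar the group mean. Sesn2 is lowest in both mCherry SD mice, and progenitor-like Plk2 is highest in both mCherry HFD mice.

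Trp53 itself passed the threshold in no comparison of any class. In macrophage-like nuclei it stood at 12.7 and 26.6 CPM for mCherry SD, 31.6 and 30.1 for mCherry HFD, 28.1 and 18.6 for Tert HFD, and 23.5 and 14.4 for TertCi HFD. Both mCherry HFD mice were the highest, by a small margin over Tert HFD rep134. In adipocyte-like nuclei it stood at 13.1 and 18.1 CPM for mCherry SD, 22.5 and 23.2 for mCherry HFD, 17.6 and 10.8 for Tert HFD, and 17.2 and 10.6 for TertCi HFD, with the mCherry HFD mice highest again. In progenitor-like nuclei it stood at 12.7 and 16.1 CPM for mCherry SD, 26.9 and 33.5 for mCherry HFD, 23.8 and 16.3 for Tert HFD, and 20.9 and 11.1 for TertCi HFD. There too the mCherry HFD mice were highest. The log2 difference for diet was 0.81 (SE 0.364, adjusted p 0.174) in progenitor-like, 0.26 (SE 0.370, adjusted p 0.672) in adipocyte-like and 0.32 (SE 0.374, adjusted p 0.591) in macrophage-like nuclei with edgeR. The low barcodes held 34.02 and 33.0 CPM of Trp53 in mCherry HFD and 19.4, 21.1, 25.9, 13.7, 18.1 and 17.4 in the other mice, in the order given above. As counts of RNA, these values do not measure p53 protein, which is set mainly by its stability.

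Mdm2, both a regulator and a target of p53, passed the threshold in no comparison of these classes either. It stood at 149 and 96.8 CPM for mCherry SD, 157 and 154 for mCherry HFD, 123 and 171 for Tert HFD, and 112 and 100.0 for TertCi HFD in macrophage-like nuclei. In adipocyte-like nuclei it stood at 70.9 and 78.3 CPM for mCherry SD, 94.5 and 121 for mCherry HFD, 100.3 and 96.9 for Tert HFD, and 83.9 and 76.6 for TertCi HFD, and in progenitor-like nuclei at 50.9 and 88.6 CPM for mCherry SD, 65.6 and 63.9 for mCherry HFD, 76.6 and 117 for Tert HFD, and 57.9 and 65.4 for TertCi HFD. The mCherry HFD mice lay within the range of Tert HFD in macrophage-like nuclei and of mCherry SD in progenitor-like nuclei. In adipocyte-like nuclei the mCherry SD mice were below both mCherry HFD and both Tert HFD mice. The diet difference was 0.19 (SE 0.210, adjusted p 0.584) in adipocyte-like nuclei with edgeR. The widest difference was for Tert in progenitor-like nuclei, 0.71 (SE 0.261, edgeR adjusted p 0.109), which was called without the filter on low counts (log2 0.78, edgeR adjusted p 0.00575) and without Tert HFD rep134 (log2 1.11, edgeR adjusted p 0.0121).

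None of the kinases Atm, Atr, Chek1 and Chek2 was called where it was tested. The nearest was Chek2 for diet in adipocyte-like nuclei, which stood at 5.45 and 7.72 CPM for mCherry SD, 18.8 and 32.5 for mCherry HFD, 5.49 and 8.97 for Tert HFD, and 8.14 and 8.66 for TertCi HFD. Both mCherry HFD mice were above all others, and the log2 difference was 1.46 (SE 0.465, edgeR adjusted p 0.0572). The low barcodes held 24.5 and 24.5 CPM of Chek2 in mCherry HFD and at most 15.7 in any other mouse. Adipocyte-like Chek2 was at or below them in 7 of 8 libraries. In mCherry HFD rep129 the Chek2 level rests on few UMIs, as do those of Sesn2, Phlda3 and Trp53 in the same nuclei. Ccng1, the cyclin G1 gene whose promoter holds the closest match above, stood at 6.34 and 4.21 CPM for mCherry SD, 17.0 and 15.7 for mCherry HFD, 9.95 and 6.89 for Tert HFD, and 9.93 and 11.02 for TertCi HFD in macrophage-like nuclei. Both mCherry HFD mice were the highest, and the diet difference, 1.55 (SE 0.526, edgeR adjusted p 0.0548), was not called. Macrophage-like Ccng1 was at or below the low barcodes in all 8 libraries. These held 20.5 and 28.6 CPM of Ccng1 in mCherry HFD and at most 14.9 in any other mouse. The part of free RNA in the Chek2 and Ccng1 differences was not tested. The death genes Bax, Bbc3, Pmaip1, Aen, Apaf1, Ei24, Eda2r, Tnfrsf10b and Trp53inp1, the repair genes Xpc, Polk and Rrm2b, the arrest genes Zmat3 and Btg2, and the nuclear-body gene Pml were not called wherever they were tested. Of these, Pmaip1 was tested in macrophage-like nuclei only, Tnfrsf10b in adipocyte-like nuclei only, and Btg2 in both of those classes. Chek1 was tested in macrophage-like nuclei only, and Psrc1 and Perp passed the filter in no class.

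Among members not called that had over 3 UMIs in both groups, the diet differences ran from -1.09 (Pml, edgeR adjusted p 0.0642) to 2.02 (Gdf15, edgeR adjusted p 0.219) in adipocyte-like nuclei. In progenitor-like nuclei they ran from -1.06 (Aen, edgeR adjusted p 0.0603) to 0.84 (Plk2, edgeR adjusted p 0.250), and in macrophage-like nuclei from -0.89 (Sesn2, edgeR adjusted p 0.375) to 1.55 (Ccng1, edgeR adjusted p 0.0548). A p above the threshold does not show that these genes were equal between groups. The median of all members tested in macrophage-like nuclei was -0.03 for diet, -0.15 for Tert and -0.08 for TertCi, against 0.06, -0.01 and -0.03 over all genes. In progenitor-like nuclei the members' medians were 0.04, 0.04 and -0.01, against 0.03, -0.02 and -0.04. In adipocyte-like nuclei the medians for Tert and TertCi were -0.12 and 0.07, against 0.04 and 0.02.

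**Figure D5:**
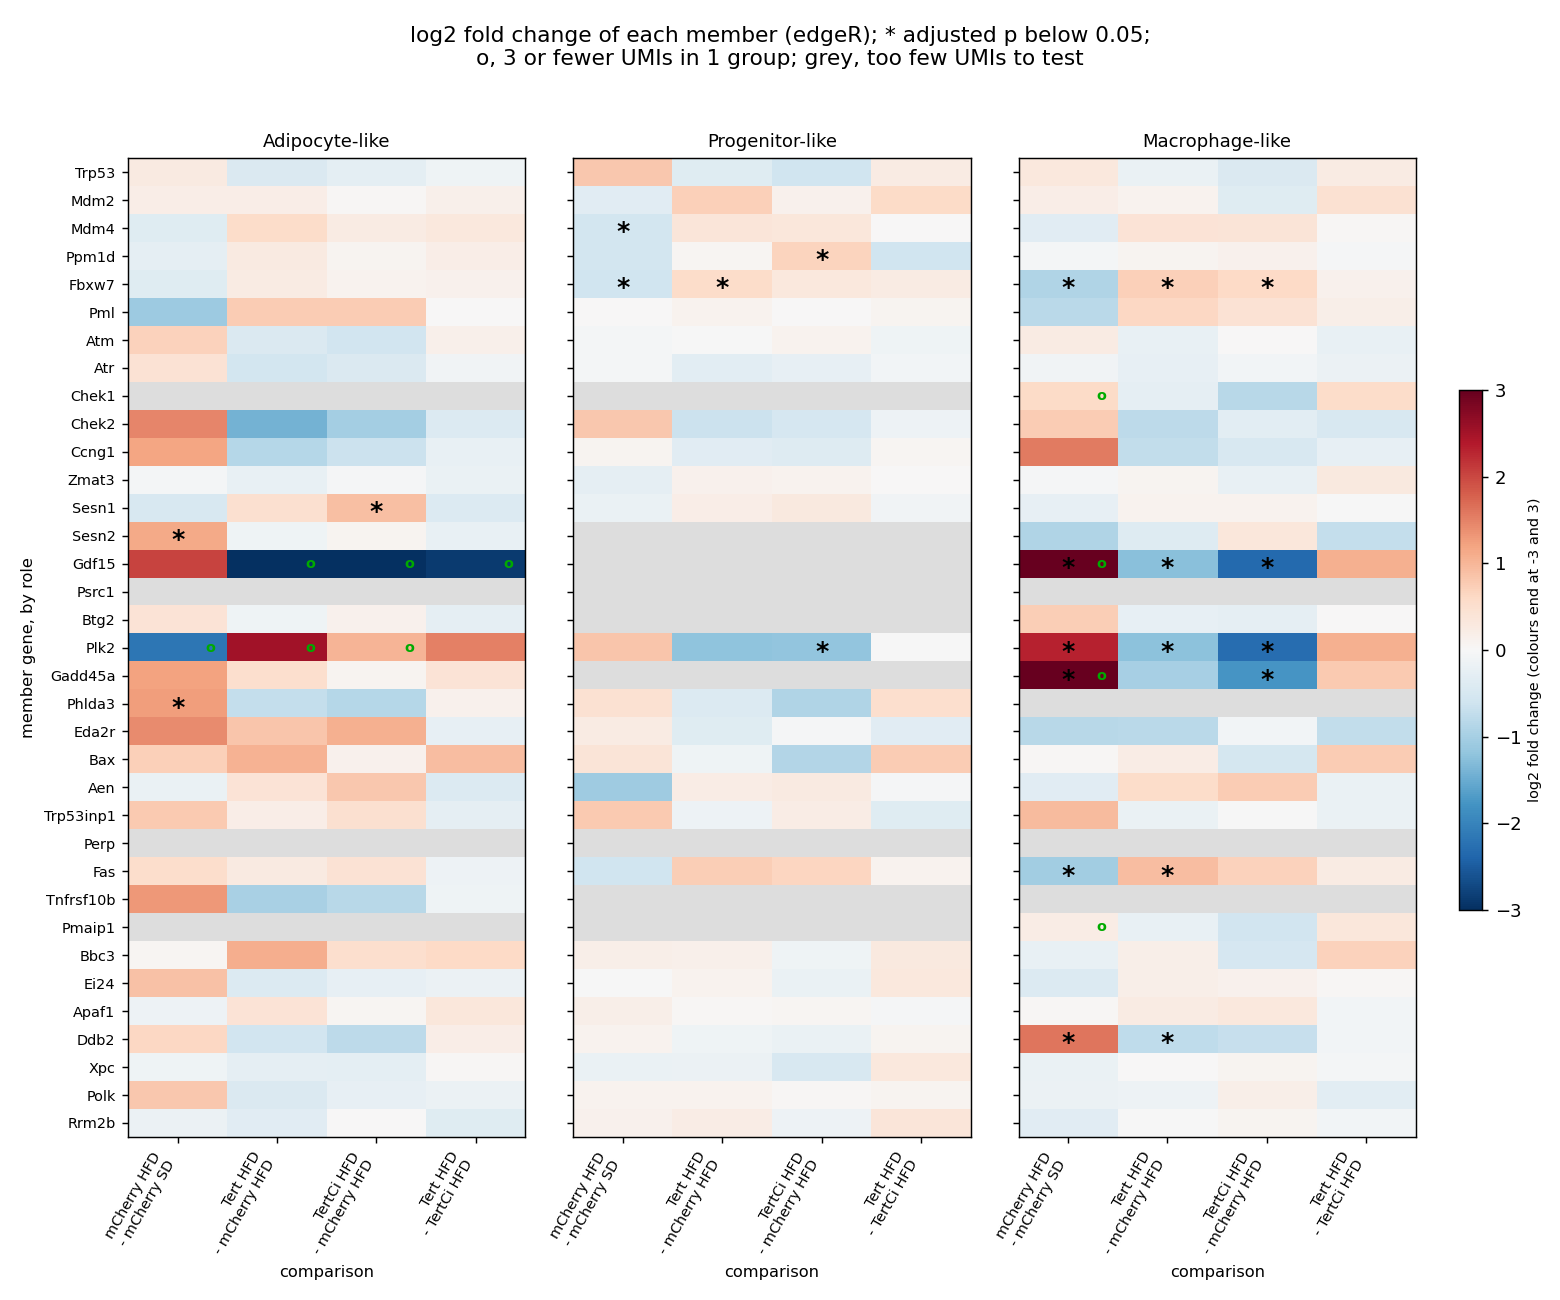
Log2 difference of each of the 35 genes (rows, by role) in each comparison and class (columns); an asterisk marks an edgeR adjusted p below 0.05, a green circle a gene with at most 3 UMIs in 1 of the groups, and grey a gene that did not pass the filter. Trp53, Mdm2 and the kinases carry no asterisk, and the asterisks are most frequent in macrophage-like nuclei.

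Tert HFD and TertCi HFD were also set against each other. The difference does not use the levels of the mCherry HFD mice, but scaling and spread were estimated over all 8 libraries. No member was called with edgeR in adipocyte-like, progenitor-like or macrophage-like nuclei, against 0%, 0% and 0% of all genes tested. In each class 2 members had an unadjusted p below 0.05, as for 4.88%, 4.5% and 3.83% of all genes, and DESeq2 called none. The nearest was Plk2 in macrophage-like nuclei, at 34.6 and 29.6 CPM in Tert HFD and 15.9 and 14.4 in TertCi HFD. These mice did not overlap, and the log2 difference was 1.06 (SE 0.258, edgeR adjusted p 0.751). Gdf15 stood at 4.42 and 2.76 CPM in Tert HFD and 2.11 and 0.848 in TertCi HFD, with a difference of 1.07 (SE 0.565, edgeR adjusted p 1.000). That a member was called against mCherry HFD in 1 of these genotypes and not in the other, as for Fas, Ddb2 and Gadd45a, is therefore not shown to be a difference between them.

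Other classes were not tested. In endothelial-like nuclei, of which no mCherry SD mouse had 25, Plk2 stood at 97.5 and 66.5 CPM in mCherry HFD, 49.9 and 28.8 in Tert HFD and 29.1 and 43.1 in TertCi HFD. In mesothelial-like nuclei, with 46 to 347 a mouse, it stood at 2.83 and 9.01 CPM in mCherry SD, 36.5 and 36.5 in mCherry HFD, 10.7 and 0 in Tert HFD and 1.12 and 10.1 in TertCi HFD. Both classes were highest in the mCherry HFD mice, as in macrophage-like nuclei, progenitor-like nuclei and the low barcodes. Endothelial-like Gdf15 stood at 21.9 and 12.1 CPM in mCherry HFD, 0.942 and 0 in Tert HFD and 2.32 and 0 in TertCi HFD. Endothelial-like Trp53 stood at 38.7 and 45.4 CPM in mCherry HFD, 20.7 and 14.4 in Tert HFD and 20.9 and 15.7 in TertCi HFD, again highest in mCherry HFD. The 1 endothelial-like cluster, 837 nuclei, had all 10 macrophage markers raised at least 2-fold over the 25th percentile of all clusters beside its 8 endothelial markers, and the larger of the 2 mesothelial-like clusters, 885 nuclei, had all 10 macrophage and all 10 progenitor markers raised beside its 8 mesothelial ones. The part of these markers and of free RNA in these values was not tested.

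Whether the diet or genotype differences themselves differed between classes was tested with mouse as a block, a test added after the data were seen. Between macrophage-like and adipocyte-like nuclei, 2 of 33 members were called for diet, against 6.04% of all genes, 1 for Tert, against 2.74%, and 1 for TertCi, against 4.63%. The Plk2 diet difference was 4.82 (SE 1.03, edgeR adjusted p 0.00265) higher in macrophage-like nuclei, and its Tert difference was -3.90 (SE 0.999, edgeR adjusted p 0.0250). Adipocyte-like Plk2 rested on 1 UMI in mCherry HFD, and neither Plk2 difference held when nuclei were chosen otherwise. With 1000 UMIs in every library they were -0.21 (adjusted p 0.832) for diet and 1.28 (adjusted p 0.105) for Tert, and with no mixed class 0.21 and 0.10. Under those choices adipocyte-like Plk2 itself turned from -2.17 (SE 1.45, edgeR adjusted p 0.334) for diet to a higher level in mCherry HFD (log2 2.88, edgeR adjusted p 0.00987, and 2.27, edgeR adjusted p 0.0119). Adipocyte-like Fas stood at 56.0 and 75.0 CPM for mCherry SD, 125 and 92.7 for mCherry HFD, 121 and 109 for Tert HFD, and 120.1 and 113 for TertCi HFD. It was lowest in the mCherry SD mice, in which macrophage-like Fas was high, although its own diet difference, 0.52 (SE 0.226, edgeR adjusted p 0.140), was not called. The difference between the classes was -1.38 (SE 0.388, edgeR adjusted p 0.0256) for diet, and it was not called with 1000 UMIs in every library (-1.17, adjusted p 0.0611) or with no mixed class (-1.17, adjusted p 0.0647). For Sesn1 the TertCi difference was -0.99 (SE 0.251, edgeR adjusted p 0.0162), lower in macrophage-like nuclei, and was kept with 1000 UMIs in every library (-0.76, adjusted p 0.0432) but not with no mixed class (-0.52, adjusted p 0.167). Those choices also made calls. With 1000 UMIs in every library 4 of 34 members were called for TertCi, against 7.91% of all genes: Sesn1, Apaf1 at 0.96 (SE 0.252, edgeR adjusted p 0.0351), Gdf15 at 3.81 (SE 0.969, edgeR adjusted p 0.0310) and Plk2 at 1.57 (SE 0.402, edgeR adjusted p 0.0319). With no mixed class Ddb2 was called for diet, at 1.52 (SE 0.440, edgeR adjusted p 0.0452), 1 of 34 members against 4.16%. No member was called between macrophage-like and progenitor-like nuclei, against 4.94%, 1.93% and 3.97% of all genes for diet, Tert and TertCi, or between progenitor-like and adipocyte-like nuclei, against 4.15%, 1.29% and 2.24%.

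Further genes of the pathway, in 3 lists made for this purpose, were read from the same tests. In macrophage-like nuclei 2 of 14 other p53 targets tested rose with diet, as did 2 of 12 other p53 regulators, with 1 falling, and 4 of 26 genes of break sensing and repair. Of all genes tested there, 10.2% rose and 10.2% fell. For Tert, 2 of 14, 2 of 12 and 2 of 26 fell and none rose, while 11.1% of all genes fell and 8.84% rose. For TertCi, 2 of 14 targets fell, 2 of 12 regulators rose and 2 fell, and 1 of 26 repair genes rose and 2 fell. There 11.7% of all genes rose and 14.2% fell. In adipocyte-like nuclei 2 of 14, 2 of 13 and 3 of 26 rose with diet, against 9.66% of all genes. In progenitor-like nuclei 1 of 8 targets rose and 1 fell, 1 of 12 regulators rose, and 1 of 22 repair genes rose. Of all genes there, 7.53% rose and 4% fell. For Tert, 1 of 26 repair genes fell in adipocyte-like nuclei, against 0.768% of all genes. In progenitor-like nuclei 1 of 12 regulators and 1 of 22 repair genes fell, against 7.7%. For TertCi, 2 of 13 regulators and 2 of 26 repair genes fell in adipocyte-like nuclei, against 4.74% of all genes. In progenitor-like nuclei 1 of 8 targets, 2 of 12 regulators and 3 of 22 repair genes fell, against 12.8%. In neither class did any gene of these lists rise for Tert or TertCi. Lists this short were not compared with these shares of all genes by a test.

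Xrcc6, which encodes the Ku70 subunit of the complex that binds broken DNA ends, was called in all 3 classes. In macrophage-like nuclei it stood at 6.34 and 7.01 CPM in mCherry SD, 39.1 and 42.9 in mCherry HFD, 4.82 and 10.3 in Tert HFD and 10.8 and 11.9 in TertCi HFD, each pair given from low to high, as for the other genes of these lists. Every other mouse was below the mCherry HFD mice. The log2 difference was 2.39 (SE 0.451, edgeR adjusted p 0.00292) for diet, -2.13 (SE 0.296, edgeR adjusted p 0.000804) for Tert and -1.69 (SE 0.297, edgeR adjusted p 0.00182) for TertCi. In adipocyte-like nuclei the diet difference of Xrcc6 was 2.55 (SE 0.356, edgeR adjusted p 0.00304), and in progenitor-like nuclei 2.05 (SE 0.372, edgeR adjusted p 0.00663). The low barcodes held 7.82 and 19.1 CPM of Xrcc6 in mCherry SD, 52.7 and 60.3 in mCherry HFD, 21.2 and 11.2 in Tert HFD and 17.0 and 14.8 in TertCi HFD, with mCherry HFD highest there too.

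Brca1, which acts in recombination repair, stood at 0 and 5.61 CPM in macrophage-like nuclei of mCherry SD and 41.2 and 58.8 in mCherry HFD. Cyfip2, a p53 target that binds the translation repressor FMRP, stood at 0 and 3.17 CPM in mCherry SD, 26.6 and 32.2 in mCherry HFD and 6.20 and 6.31 in Tert HFD. Neither gene overlapped between the groups. The macrophage-like sums of mCherry SD held 315286 and 712964 UMIs in all, so these low levels rest on few UMIs. Brca1 rose with diet by 3.52 (SE 0.562, edgeR adjusted p 0.00105) on the log2 scale, and Cyfip2 fell in Tert HFD, at -2.08 (SE 0.357, edgeR adjusted p 0.00231). The low barcodes held 1.25 and 1.32 CPM of Brca1 in mCherry SD and 30.3 and 24.5 in mCherry HFD. Of Cyfip2 they held 18.5 and 9.87 CPM in mCherry SD, 20.2 and 32.6 in mCherry HFD and 14.02 and 9.45 in Tert HFD. In mCherry SD and Tert HFD this was above the nuclei. Brca1 is also a gene of dividing cells, and the cycling genes were higher in the same mice, as given above. The part of dividing cells in the Brca1 difference was not tested.

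The ribosomal proteins Rpl5 and Rpl11, which bind Mdm2 under nucleolar stress, were among the named calls as well. Rpl11 stood at 36.3 and 41.2 CPM in macrophage-like nuclei of mCherry HFD, 9.65 and 12.3 in Tert HFD and 6.78 and 11.8 in TertCi HFD, with log2 differences of -1.62 (SE 0.367, edgeR adjusted p 0.00958) and -1.75 (SE 0.379, edgeR adjusted p 0.00568). The mCherry HFD mice were highest. The low barcodes held 119 and 225 CPM of Rpl11 in mCherry HFD, above the nuclei, and 5.63, 9.87, 35.7, 16.6, 23.9 and 13.9 in the other mice. Rpl5 fell in TertCi HFD macrophage-like nuclei, from 33.2 and 39.99 to 12.7 and 13.1 CPM, at -1.31 (SE 0.279, edgeR adjusted p 0.00509). It rose with diet in adipocyte-like nuclei, from 9.45 and 10.0 to 28.8 and 55.6 CPM, at 1.63 (SE 0.373, edgeR adjusted p 0.0183). The low barcodes moved the same way, with 72.6 and 87.8 CPM of Rpl5 in mCherry HFD, 13.1 and 24.3 in mCherry SD and 21.8 and 18.3 in TertCi HFD, all above the nuclei.

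Fdxr, a mitochondrial p53 target, fell in TertCi HFD progenitor-like nuclei, from 30.4 and 31.6 to 10.5 and 14.6 CPM, at -1.06 (SE 0.262, edgeR adjusted p 0.0162). Its low barcodes held 13.5 and 20.8 CPM in mCherry HFD and 7.97 and 10.5 in TertCi HFD, below the nuclei. Dram1, a lysosomal p53 target of autophagy, fell with diet in progenitor-like nuclei, from 79.1 and 141 to 71.0 and 78.5 CPM, at -0.79 (SE 0.225, edgeR adjusted p 0.0430). The low barcodes held more Dram1 than the nuclei and were lower in mCherry HFD too, at 243 and 345 CPM in mCherry SD and 97.8 and 111 in mCherry HFD. The part of free RNA in the differences of Xrcc6, Brca1, Cyfip2, Rpl5, Rpl11, Fdxr and Dram1 was not tested.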

How the data were processed

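The authors deposited raw UMI counts of every barcode. Cell Ranger 7.1.0 wrote them, per the file headers, while the submitters' processing notes name Cell Ranger 5.0.1, bcl2fastq 2.20.0 and mm39. No coordinates came from the files, and promoter sequences are from RefSeq for GRCm38.p6. Promoter entries were matched by symbol for 27 of the 35 genes. The members, gene lists and markers were chosen with earlier results of these data known.

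A barcode was called a nucleus at the larger of 500 UMIs and 0.1 of the 99th percentile of its library's 5000 largest barcodes (987 to 4705 UMIs), if it had 300 genes or more and no more than 5% of its UMIs from mitochondrial genes. The automatic scrublet threshold marked at most 0.199% of nuclei, so the highest doublet scores were removed at 0.8% per 1000 nuclei, 1.59 to 6.35% per library. Nuclei were clustered in scanpy 1.11.5 with 2000 variable genes, 30 components, 15 neighbours and Leiden resolution 1. Of 41 clusters, 24 were named, each from at least 3 raised markers, 12 were mixed and 5 unnamed.

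UMI counts were summed per class and mouse. All 8 libraries were fitted with edgeR 4.0.16 in R 4.3.3 (TMM, filterByExpr, quasi-likelihood test, 4 contrasts), with Benjamini-Hochberg adjustment over all genes of a class and calls at an adjusted p below 0.05. CPM in the text are UMIs per 1000000 UMIs of the class sum. The steps were tested on simulated data. Genes given with every mouse were Trp53, Mdm2 and each member called. From the other lists, the rule named the 3 called genes with the smallest adjusted p per class and comparison, given with the groups compared, of which 1 is not reported here. Chek2, Ccng1 and the unadjusted Plk2 and Gdf15 differences were added after their values were seen. Alternatives were other size factors, no filter, DESeq2 1.42.0, leaving out each mouse, 1000 UMIs in every library and no mixed class. Total UMIs alone, leaving out the cycling cluster and the tests between classes, also run with 1000 UMIs in every library and with no mixed class, were added after the data were seen.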

Additional observations from a re-analysis of the deposited data

Results flagged for a closer look

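In all, 4 member differences were unlike between macrophage-like and adipocyte-like nuclei by a test of the difference itself, with mouse as a block and an edgeR adjusted p below 0.05. These were 2 of 33 members for diet, 1 for Tert and 1 for TertCi, near or below the 6.04%, 2.74% and 4.63% of all genes called. For diet, the log2 difference between the classes (macrophage-like minus adipocyte-like) was 4.82 for Plk2, with an edgeR adjusted p of 0.00265, and -1.38 for Fas, with 0.0256. For Tert HFD against mCherry HFD it was -3.90 for Plk2, with an adjusted p of 0.0250. For TertCi HFD against mCherry HFD it was -0.99 for Sesn1, with 0.0162. Adipocyte-like Plk2 had 1 UMI in the 2 mCherry HFD mice together, and both Plk2 differences were lost or changed sign when nuclei were chosen otherwise. That of Fas was lost under the same 2 choices and that of Sesn1 under 1 of them. The adipocyte-like sums of mCherry HFD came from 110 and 32 nuclei.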

How the results depend on the processing

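No member call within a class changed sign under any alternative. The Plk2 calls in macrophage-like nuclei, in all 3 comparisons with mCherry HFD, and the Fbxw7 diet call there were kept under all 15 alternatives. Between macrophage-like and adipocyte-like nuclei, the Plk2 differences turned to -0.21 for diet and 1.28 for Tert with 1000 UMIs in every library, and to 0.10 for Tert with no mixed class. The cause was not tested. Calls of members, with the share of all genes called in the same fit in brackets, were as follows. With 1000 UMIs as the threshold in every library, adipocyte-like nuclei gave 4 for diet (22.8%), 3 for Tert (5.59%) and 5 for TertCi (18.7%), in place of 2, 0 and 1, by gaining Gdf15 and Plk2 in each, Mdm4 in the first 2, Psrc1 for diet and TertCi and Fas for TertCi and losing Phlda3 and Sesn2 for diet. Macrophage-like nuclei gave 10 for diet (33.4%), 3 for Tert (20.7%) and 7 for TertCi (32.4%), in place of 6, 5 and 4, by gaining Bax, Chek2, Pml and Trp53inp1 for diet and Bax, Ddb2, Fas and Mdm4 for TertCi and losing Ddb2 and Gdf15 for Tert and Fbxw7 for TertCi. With DESeq2, adipocyte-like nuclei gave 1 for diet (11.4%), progenitor-like nuclei 0 for diet (7.93%), 0 for Tert (5.8%) and 0 for TertCi (10.4%), and macrophage-like nuclei 3 for diet (17%) and 2 for Tert (12.8%). Without the filter on low counts, adipocyte-like nuclei gave 1 for Tert (4.95%; Gdf15 gained), and progenitor-like nuclei 3 for Tert (7.6%; Fas, Mdm2) and 5 for TertCi (11.7%; Fas, Gdf15, Psrc1, Tnfrsf10b). With no mixed class, adipocyte-like nuclei gave 5 for TertCi (17.9%; Fas, Gdf15, Plk2 and Psrc1 gained), and progenitor-like nuclei 2 for Tert (21.3%; Fas, Plk2) and 4 for TertCi (31.9%; Bax, Fas). The diet calls changed under that choice too. Adipocyte-like nuclei lost Sesn2 and Phlda3, and their gains included Plk2 (log2 2.27, edgeR adjusted p 0.0119) and Gdf15 (log2 2.95, edgeR adjusted p 0.0335). Progenitor-like nuclei lost Fbxw7, and their gains included Plk2 and Aen. Under total UMIs alone, adipocyte-like nuclei gave 4 for diet (13.1%; Chek2 and Polk gained) and 0 for TertCi (8.01%), and progenitor-like nuclei 1 for diet (12%; Trp53inp1 gained). Leaving out 1 mouse at a time changed the counts in adipocyte-like nuclei for diet and TertCi, while that for Tert stayed at 0. In progenitor-like nuclei they ran from 0 to 3 for diet, 0 to 2 for Tert and 0 to 3 for TertCi, and in macrophage-like nuclei from 3 to 7 for diet, 1 to 5 for Tert and 1 to 9 for TertCi. Between Tert HFD and TertCi HFD they stayed at 0. Where 1 of the 2 mice of a compared group was left out, the other was assumed to vary like the remaining groups. Without mCherry HFD rep128 or rep129, fewer members were called in macrophage-like nuclei for Tert and TertCi than with all mice. Shares of all genes called in these leave-out fits are not given here. Their counts are thus not read as a result about the members. Scaling by total UMIs alone moved the median of all genes for diet from -0.01 to 0.25 in adipocyte-like, 0.03 to 0.23 in progenitor-like and 0.06 to 0.26 in macrophage-like nuclei, and the share of calls that were higher from 63.3% to 83.4%, 65.3% to 82.4% and 50.04% to 66.4%. No paired analysis was possible because the replicate numbers differ between the groups. Members differed in depth, from 60 UMIs of Perp over all classes and libraries to 31460 of Sesn1, and Perp passed the filter in no class and was not tested.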
